A study of Drosophila melanogaster with 3 samples.

Results

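The genes described here are 34 listed cell cycle and DNA replication genes of Drosophila melanogaster, chosen by symbol from among 13945 protein-coding genes of the Ensembl BDGP6 annotation. All 34 symbols matched. They were ordered by role into 8 cyclins and cyclin-dependent kinases (Cdks), 3 Cdk phosphatases and inhibitors, 4 E2F and Rb factors, 5 mitotic kinases and activators of the anaphase-promoting complex (APC), 7 origin and licensing proteins, and 7 genes of the MCM helicase and PCNA. Binding of CrebB, the fly CREB transcription factor, was measured by ChIP-seq, in which chromatin is immunoprecipitated and its DNA sequenced, in 1 group of 3 biological replicates. Each sample was chromatin of whole mixed-sex embryos aged 0 to 24 h, from a transgenic line that expresses CrebB carrying GFP at its C-terminus, and the labels do not give the promoter driving that fusion. Whole embryos mix all tissues and stages, so a peak cannot be assigned to a cell type or a time. One free-text label speaks of input controls, whereas the antibody label names CrebB, and the antibody label was followed.

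The cell division cycle is driven by cyclin-dependent kinases, which act only when bound to a cyclin and are switched on by Cdc25 phosphatases. E2F factors with their partner Dp activate genes for S phase, and the retinoblastoma protein Rbf holds them back. At origins of replication the ORC complex, Cdc6 and Dup load the MCM helicase, after which PCNA clamps the polymerases to DNA. In flies many replication genes, PCNA among them, are known to be switched on through E2F sites and through the DNA replication-related element (DRE), the sequence TATCGATA bound by the factor DREF. CREB proteins bind the cAMP response element (CRE), with TGACGTCA as its full palindrome.

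Peaks came from 5 lists. The pooled list and each replicate list hold 30000 peaks ranked by the peak caller's own signal value, whose scale is not stated. The optimal list, which passed the authors' reproducibility threshold, holds 3915 peaks and equals the 3915 highest-signal peaks of the pooled list. A promoter peak had its summit within 500 bp of an annotated transcription start site (TSS) of the gene, and a body peak had it inside the gene but farther from every TSS of it. Read numbers are not in the sources used here, and the depth of each library is therefore unknown.

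CrebB peaks past the reproducibility threshold were found at the promoters of 7 genes: the mitotic cyclin CycB, the S phase cyclin CycE, the activator E2f1, its partner Dp, the Aurora kinase aurA, and the licensing genes dup and dpa. These are 20.6% of the 34 genes (95% Wilson interval 10.3% to 36.8%), while 18.7% of all protein-coding genes had such a peak, so the share was near the background. Fewer remained when the peak also had to be found again in single replicates, by a summit within 100 bp among the strongest 3915 peaks of each replicate used. Without replicate 1 the genes were Dp, E2f1, dpa and dup (4 genes, against 11.4% of all genes). Without replicate 2 they were Dp, dpa and dup (3 genes, against 11.1%), and without replicate 3 CycB joined Dp, E2f1, dpa and dup (5 genes, against 12.1%). With support by all 3 replicates Dp, dpa and dup were left, 8.82% of the 34 genes beside 9.67% of all genes.

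Below the threshold the picture was different, with weaker peaks at most of the remaining promoters. In the pooled list 28 of the 34 genes (82.4%, 66.5% to 91.7%) had a promoter peak, against 56.8% of all genes. Limited to peaks with a q-value under 0.05, 20 genes (58.8%) had one, against 38.4%, and within the first 10000 ranks 19 genes (55.9%) did, against 37.0%. The excess over all genes was seen in each full replicate list as well, though the pooled list was called on these same 3 replicates combined. Replicates 1, 2 and 3 had a promoter peak at 29, 27 and 28 of the 34 genes (28.0 ± 1.0, SD, n = 3). These were 85.3%, 79.4% and 82.4%, against 55.8%, 54.9% and 55.7% of all genes. Among the strongest 3915 peaks of each replicate the counts were 7, 7 and 11 (8.33 ± 2.31, SD, n = 3). These were 20.6%, 20.6% and 32.4%, against 18.3%, 18.1% and 19.3% of all genes. In replicates 1 and 2 the share was thus near the background. For replicate 3 the Wilson interval, 19.1% to 49.2%, just included the 19.3% of all genes. These shares describe a chosen list of genes and were not tested. They were also not corrected for the number of TSSs: 20 of the 34 genes had only 1, beside 10246 of the 13945 genes in all.

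**Figure D1:**
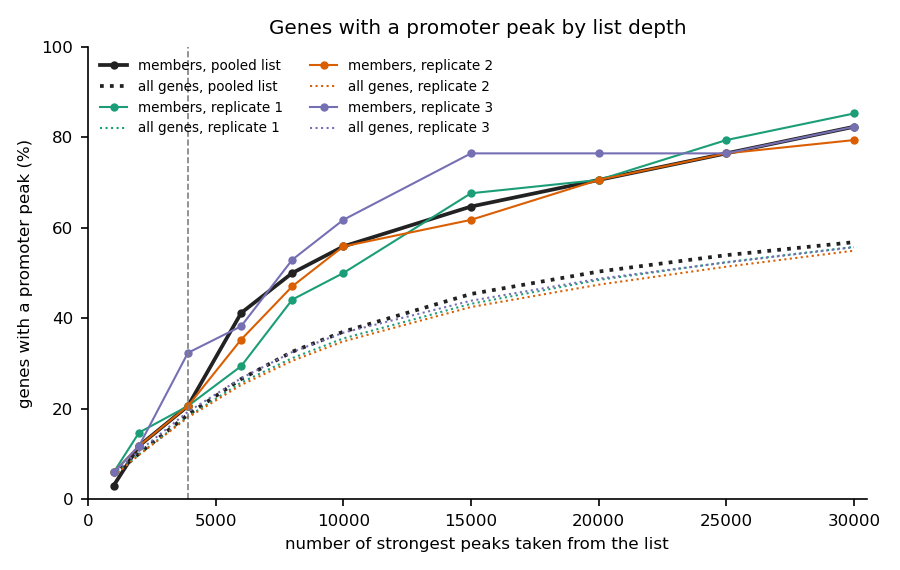
Share of genes with a promoter peak (y axis, percent) when only the given number of strongest peaks is taken from a list (x axis), for the 34 genes (solid lines, points) and for all protein-coding genes (dotted lines), in the pooled list and the 3 replicate lists. The dashed line marks 3915 peaks; in the pooled list the shares lay at 20.6% and 18.7% there and at 55.9% and 37.0% by 10000 peaks.

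The distance between the curves opened between ranks 3915 and 6000 of the pooled list. With the first 2000 ranks 4 of the 34 genes were reached (11.8%, against 10.1% of all genes), and with the first 6000 ranks 14 were (41.2%, against 26.6%). By 20000 ranks it was 24 (70.6%, against 50.3%). In single replicates the first 10000 ranks reached 55.9% ± 5.88 of the 34 genes and 35.7% ± 0.981 of all genes (SD, n = 3). The 21 genes with only a weaker peak had best ranks from 4302 to 28410 with a median of 8716, beside a median of 10356 over the 5321 such genes in all. The nearest genes outside the optimal list were Cdk1 (rank 4302, signal 143.2) and CycB3 (rank 4306, signal 143.1), and the last peak of that list had a signal of 151.9. The lowest-ranked of the 7 genes inside it was CycB, at rank 3033 with a signal of 173.7.

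The stretches that carry the comparison of promoters with and without an optimal peak are shown here, from the Release 6 (dm6) sequence of RefSeq. The first 4 are promoter stretches of genes without an optimal promoter peak, with the DRE in capitals, and the next 2 hold the E2F-type sites (TTTGGCGC, in capitals, read on either strand) of CycE and of string (stg), the Cdc25 phosphatase that triggers embryonic mitoses. The last 3 are centred on optimal promoter summits of CycE, E2f1 and aurA. In these, capitals mark TGACG or its reverse complement, the core of the CRE, which only the E2f1 stretch contains. All are written 5′ to 3′ on the strand of the gene.
CycA DRE, chr3L:11833579-11833630, minus strand: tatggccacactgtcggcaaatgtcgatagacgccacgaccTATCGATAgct
Cdk2 DRE, chr3R:20735520-20735610, plus strand: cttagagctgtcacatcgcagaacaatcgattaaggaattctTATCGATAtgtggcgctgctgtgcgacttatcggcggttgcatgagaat
Orc2 DRE, chr3R:13964642-13964732, plus strand: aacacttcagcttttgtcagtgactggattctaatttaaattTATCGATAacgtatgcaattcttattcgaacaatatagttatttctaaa
Orc5 DRE, chr2L:13829742-13829815, plus strand: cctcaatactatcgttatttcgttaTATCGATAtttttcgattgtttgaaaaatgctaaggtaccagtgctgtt
CycE E2F sites, chr2L:15746652-15746742, minus strand: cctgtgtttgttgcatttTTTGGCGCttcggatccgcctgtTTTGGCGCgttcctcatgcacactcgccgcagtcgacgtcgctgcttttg
stg E2F site, chr3R:29255801-29255854, minus strand: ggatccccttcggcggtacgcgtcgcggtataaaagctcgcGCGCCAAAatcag
CycE summit, chr2L:15747009-15747109, minus strand: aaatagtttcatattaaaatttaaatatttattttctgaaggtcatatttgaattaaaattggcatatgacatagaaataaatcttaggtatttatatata
E2f1 summit, chr3R:21660952-21661052, minus strand: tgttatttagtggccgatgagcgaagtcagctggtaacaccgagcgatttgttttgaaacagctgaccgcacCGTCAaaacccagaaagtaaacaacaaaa
aurA summit, chr3R:11962964-11963064, plus strand: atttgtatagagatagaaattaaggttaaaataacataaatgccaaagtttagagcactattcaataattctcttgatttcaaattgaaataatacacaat

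Among the 8 cyclins and Cdks, CycB and CycE had an optimal promoter peak, beside 18.7% of all genes. In the pooled list 7 of the 8 had a promoter peak, against 56.8% of all genes. Counts by role rest on few genes and were not tested. CycB, which drives entry into mitosis with Cdk1, had its peak on chromosome arm 2R from 22806775 to 22807170, with a signal of 173.7 and pooled rank 3033. The summit lay in intergenic sequence 25 bp upstream of a TSS of CycB. Its matching summits ranked 1900, 3220 and 8678 in replicates 1, 2 and 3, so replicate 3 had it well outside its strongest 3915 peaks.

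CycE, which starts S phase with Cdk2, had an optimal peak on 2L from 15746861 to 15747256 (signal 203.7, rank 2238). Its summit was intronic, 449 bp upstream of an internal TSS. It rested largely on replicate 3, where it ranked 783, beside rank 7745 in replicate 1 and no summit within 100 bp in replicate 2. A second optimal CycE peak overlapped it, at 2L from 15747063 to 15747458, with its summit 651 bp upstream of the same TSS and thus outside the promoter distance. That peak had rank 3175 in the pooled list and ranks 5733, 6389 and 8354 in the replicates, and none of the replicates held it among its strongest 3915. The pair of E2F-type sites shown above lay 88 bp and 111 bp upstream of the TSS, between it and both summits, at 361 bp and 338 bp from the nearest one.

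Cdk4, the kinase partner of cyclin D in growth, had no optimal peak within 500 bp of a TSS but had others inside the gene and beside it. One lay on 2R from 16583899 to 16584294 in an intron, 3264 bp downstream of the nearest Cdk4 TSS, with a signal of 302.3 and rank 1044, and it was supported by all 3 replicates (ranks 1126, 635 and 2648). The TSS of RpLP2, a ribosomal protein gene, was nearer to this summit, at 2032 bp. Another lay 624 bp upstream of the first TSS (2R, 16578648 to 16579043, rank 2432) and ranked 1976, 4809 and 1895 in the replicates. A further optimal peak (rank 1049, signal 301.7) lay past the end of the gene, 6624 bp from the gene start. It was within 500 bp of the TSS of RpLP2 and thus a promoter peak of RpLP2 by the distance used here. Within 500 bp of its TSSs Cdk4 had 4 weaker pooled peaks, the best at rank 6489.

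The other cyclins and kinases had weaker peaks or none. Cdk1, the kinase of mitosis, had its best pooled peak at rank 4302, with best ranks of 12943, 4253 and 3028 in replicates 1, 2 and 3, and the TSS of mRpS7 lay nearer to the summit (192 bp) than that of Cdk1 (208 bp). CycB3, a further mitotic cyclin, had rank 4306 in the pooled list and best ranks of 2653, 5480 and 3817, of which only that of replicate 2 lay within 100 bp of the pooled summit. For CycA, which acts in S phase and mitosis, the pooled peak ranked 5343, and it was found in replicates 1 and 3 (4689 and 3192) and not in replicate 2. CycD, the partner of Cdk4, had the weakest peak of the 28 genes with one, at rank 28410, and ranks from 13800 to 27838 in the replicates. Cdk2, the partner of cyclin E, had no pooled promoter peak and a single replicate peak, at rank 12778 in replicate 3.

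**Figure D2:**
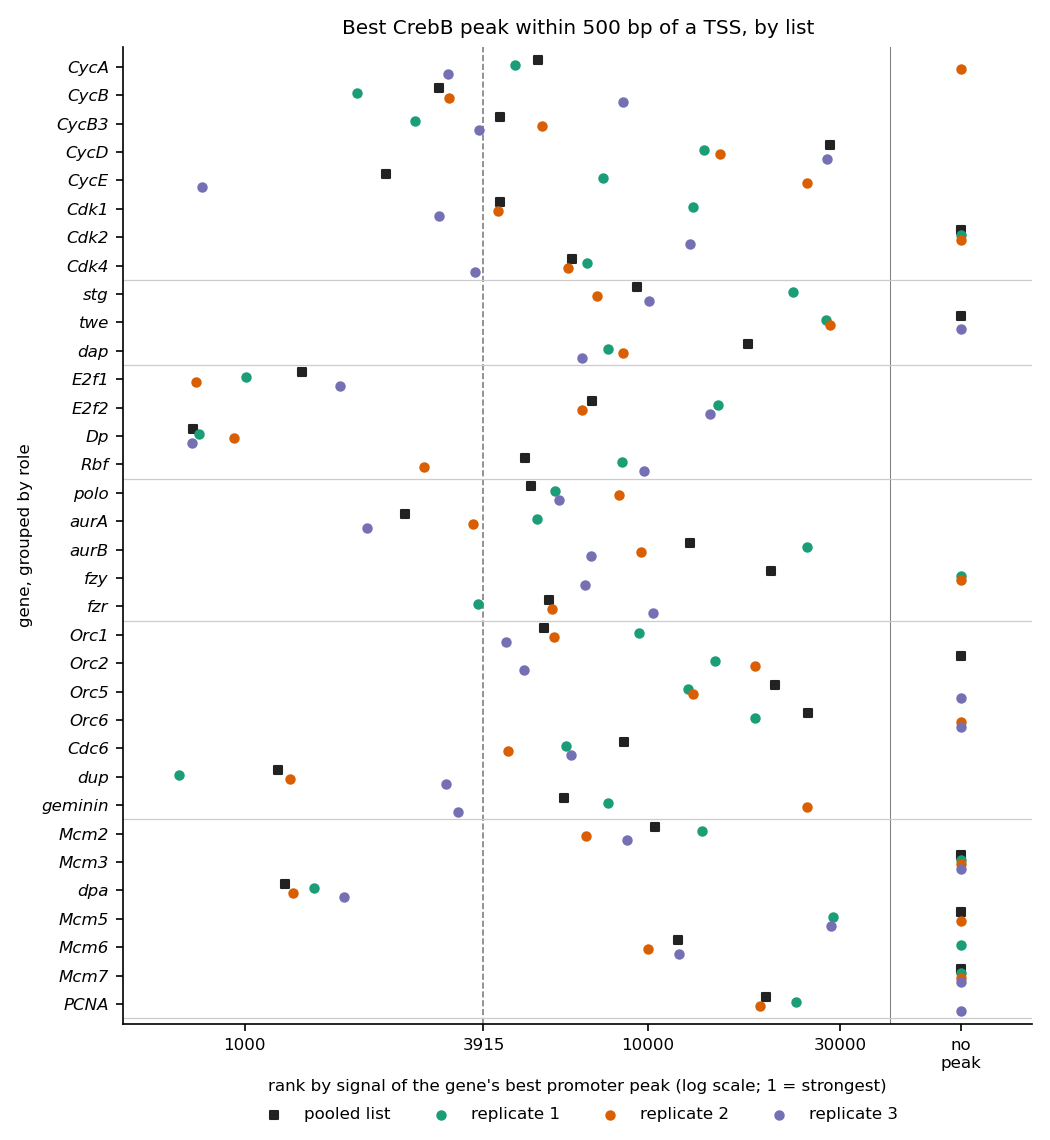
Rank of each gene's best promoter peak (x axis, log scale, 1 is strongest) in the pooled list (squares) and in replicates 1 to 3 (circles), with genes grouped by role; symbols at the far right mark genes with no promoter peak in that list. The dashed line is rank 3915: E2f1, Dp, dup and dpa lie left of it in all lists, whereas CycE ranges from 783 to 24879 across the replicates.

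None of the 3 Cdk regulators had an optimal promoter peak, beside 18.7% of all genes. At stg the best pooled peak ranked 9417, with its summit in the 5′ UTR 42 bp upstream of a TSS, and the replicates ranked their best peaks 22935, 7504 and 10103. The E2F-type site of stg lay 10 bp upstream of a TSS, 243 bp from the nearest pooled summit. At dacapo (dap), the inhibitor of cyclin E with Cdk2, the pooled rank was 17774, and the best replicate peaks ranked 7955, 8706 and 6881. These were not 1 peak, as only the replicate 2 summit lay within 100 bp of the pooled one. Twine (twe), the Cdc25 phosphatase of meiosis, had no pooled promoter peak, and its peaks in replicates 1 and 2 ranked 27685 and 28319, near the end of those lists.

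The E2F and Rb factors were the role group in which all genes had a pooled promoter peak of rank 7272 or better. They are only 4 genes, and 56.8% of all genes had a pooled promoter peak of any rank. Dp, the partner that E2F proteins need to bind DNA, had the strongest peak of the 34 genes and 3 optimal promoter peaks. The first, on 2R from 13223331 to 13223436 with a signal of 356.3, had rank 745 and ranks of 772, 941 and 740 in replicates 1, 2 and 3, so the replicates placed it alike. It lay in an intron 231 bp upstream of an internal TSS. The second (13222194 to 13222589, rank 1247) had its summit 41 bp upstream of the gene start, in the 5′ UTR of Fsn, whose TSS points the other way 26 bp from that of Dp, and ranked 1314, 1289 and 1788. The third (13223754 to 13224149, rank 1491) had its summit 361 bp downstream of a TSS and ranked 2143 and 1240 in replicates 1 and 2, with no match in replicate 3.

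E2f1, the activating E2F, carried optimal promoter peaks at its upstream end and at an internal TSS. At an internal TSS the peak on 3R from 21632839 to 21633234 had a signal of 256.9 and rank 1391, with its summit in the 5′ UTR 36 bp downstream. It ranked 1009 and 757 in replicates 1 and 2 and had no summit within 100 bp in replicate 3. Upstream of the gene start, the peak from 21660804 to 21661199 had rank 2356 and its summit in intergenic sequence 131 bp from the TSS. Here replicate 3 ranked it highest (1725), beside 3919 and 3369 in replicates 1 and 2. E2f1 was therefore in the strongest 3915 peaks of every replicate, by different peaks.

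The gene body of E2f1, which is 40568 bp long, held 3 more optimal peaks, all in introns between 2554 bp and 4751 bp downstream of the nearest TSS. The peak from 21627744 to 21628139 (rank 2261) was supported by all 3 replicates, with ranks of 3370, 2899 and 1789. The other two overlapped each other, at ranks 2491 and 3577, and neither was supported by all 3. In the pooled list E2f1 had 22 body peaks, the most of the 34 genes.

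**Figure D3:**
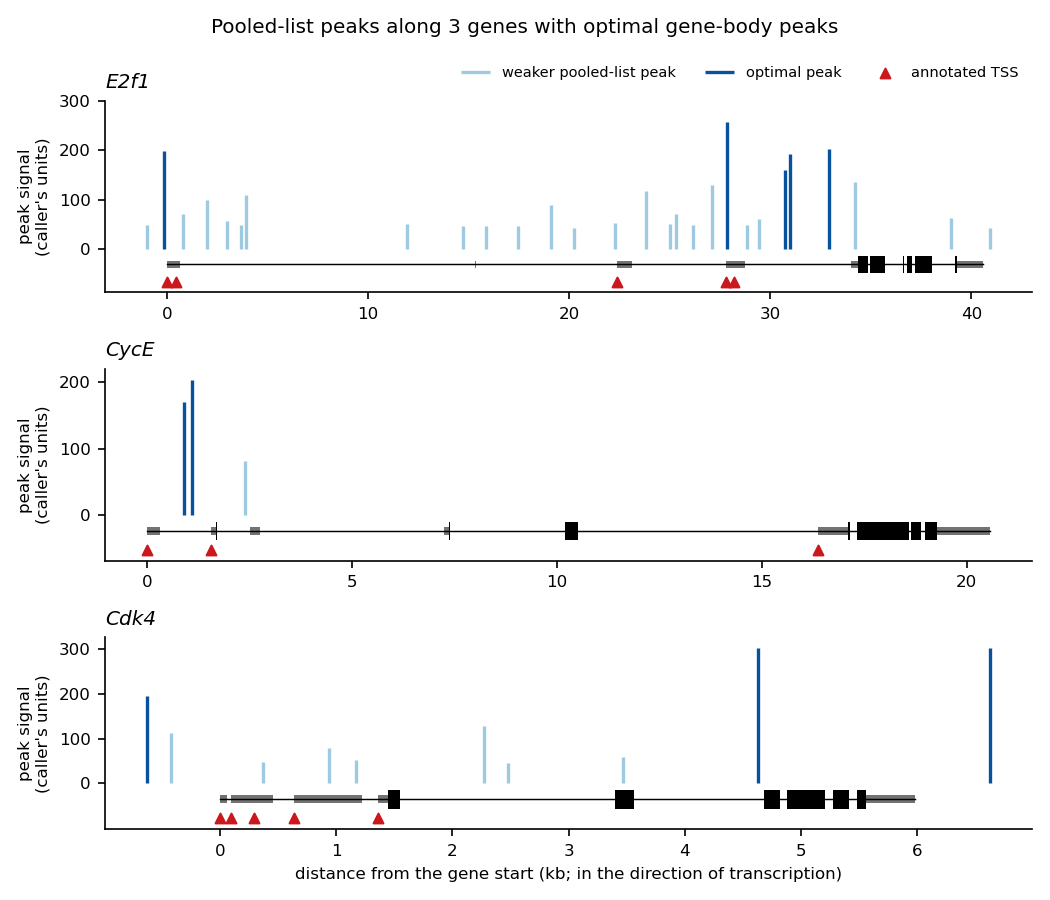
Signal (y axis, the caller's units) of pooled-list summits along E2f1, CycE and Cdk4, against distance from the gene start in the direction of transcription (x axis, kb); dark lines are optimal peaks, light lines weaker ones, triangles are annotated TSSs, and boxes below are exons (black coding, grey UTR). Optimal body peaks lie past the last TSS of E2f1, before the first internal TSS of CycE and near the coding exons at the end of Cdk4.

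Across the 34 genes, 3 had an optimal body peak (8.82%, against 6.76% of all genes), namely E2f1, CycE and Cdk4, and 17 had a pooled one of 34, against 31.8% of all genes. Gene length moved with this: the 3 genes were all over 5000 bp long, and none of the 28 shorter ones had an optimal body peak, as was so for all but 1.15% of genes of that length. Both genes over 20000 bp, E2f1 and CycE, had one, beside 38.6% of all genes of that length. The part of length in the body counts was not tested.

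The remaining factors of this group had weaker peaks. Rbf, the retinoblastoma protein, had pooled rank 4970, and replicate 2 ranked its best peak 2788, beside 8656 and 9822 in replicates 1 and 3. The replicate 3 summit lay more than 100 bp from the pooled one. E2f2, the repressing E2F, had pooled rank 7272 with its summit 16 bp upstream of a TSS, and replicate ranks of 14941, 6864 and 14302. The start of Mpp6 lies 56 bp from that of E2f2 on the opposite strand.

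Of the 5 mitotic kinases and APC activators, all had a pooled promoter peak (against 56.8% of all genes) and 1 had an optimal one (against 18.7%). At aurA, the Aurora kinase of centrosomes and spindle poles, the peak (3R, 11962816 to 11963211) had a signal of 192.4 and rank 2495, with its summit in intergenic sequence 110 bp upstream of the TSS. It ranked 5313 and 3691 in replicates 1 and 2, and the nearest replicate 3 summit was more than 100 bp away, although a different aurA promoter peak ranked 2015 there. The 201 bp around the summit had a GC content of 26.9%, among the lowest of the optimal promoter peaks of the 34 genes, which ranged from 26.4% to 54.2%.

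Polo, a kinase of spindle assembly and mitotic progression, had pooled rank 5147 and close replicate ranks of 5898, 8476 and 6036. Fizzy-related (fzr), the APC activator of G1, had rank 5688, with its summit 459 bp upstream of a TSS, and replicate ranks of 3795, 5801 and 10333. Aurora B (aurB), the kinase of the chromosomal passenger complex, had rank 12751. Fizzy (fzy), the APC activator of mitosis, had rank 20217, a peak in replicate 3 only among the replicates (rank 6980), and the TSS of cni nearer to the summit (85 bp) than its own (145 bp).

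Of the 7 origin and licensing genes, dup alone had an optimal promoter peak, beside 18.7% of all genes. A pooled promoter peak was at 6 of the 7, against 56.8% of all genes. Dup, the fly Cdt1 that loads the helicase, had an optimal peak on 2R from 15380540 to 15380935 with a signal of 276.9 and rank 1209. Replicates 1, 2 and 3 ranked it 688, 1292 and 3156, all within the strongest 3915. The summit lay 124 bp upstream of a dup TSS and 14 bp from the TSS of SRPK, a kinase gene on the opposite strand, so the peak cannot be assigned to one of the genes. When a peak was counted only for the gene with the nearest TSS, dup was the one of the 7 genes that dropped out.

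The others had weaker peaks. Orc1, the largest ORC subunit, had pooled rank 5526 and matching replicate summits at ranks 9541, 5849 and 5657, while a different peak ranked 4452 in replicate 3. Geminin, the inhibitor of Dup, had rank 6215 with its summit 4 bp from a TSS, and replicate 1 ranked this peak 7994. Replicates 2 and 3 had no summit within 100 bp of it, and their best geminin promoter peaks were different ones, at ranks 24896 and 3391. Cdc6, which loads the helicase with Dup, had rank 8716 and ranks of 6264 and 4495 in replicates 1 and 2. The best Cdc6 peak of replicate 3 (rank 6451) was a different one, 500 bp upstream of the TSS. The ORC subunits Orc5 and Orc6 had lower ranks, 20710 and 25004 of 30000, and the Orc5 summit lay nearer to the TSS of Arpc1 (61 bp) than to that of Orc5 (157 bp). Orc2 had no pooled promoter peak, while its best replicate peaks ranked 14719, 18523 and 4943.

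Of the 6 MCM helicase genes, dpa alone had an optimal promoter peak, beside 18.7% of all genes. Disc proliferation abnormal (dpa) encodes the Mcm4 subunit, and its peak on 2R from 7499830 to 7500225 had a signal of 270.3 and rank 1257, with ranks of 1486, 1320 and 1764 in the replicates. The replicates thus placed it within a narrow range. The summit lay in the 5′ UTR 117 bp downstream of a dpa TSS. A TSS of didum, a myosin gene on the opposite strand, lies 2 bp from a TSS of dpa.

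The other helicase genes divided into those with weaker peaks and those with none. Mcm2 had rank 10426 and Mcm6 rank 11920, and both had best ranks between 7039 and 13649 in the replicates that held one, with no Mcm6 peak in replicate 1. For Mcm2 only the replicate 3 summit lay within 100 bp of the pooled one. Mcm3, Mcm5 and Mcm7 had no pooled promoter peak. Mcm5 had peaks at ranks 28783 and 28490 in replicates 1 and 3, and Mcm3 and Mcm7 had no promoter peak in any of the 5 lists. PCNA, the sliding clamp, had rank 19663. Its best peaks ranked 23379 and 18967 in replicates 1 and 2, the latter more than 100 bp from the pooled summit, and replicate 3 had none. The subunits of this hexameric helicase therefore spanned the range from rank 1257 to no peak.

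**Figure D4:**
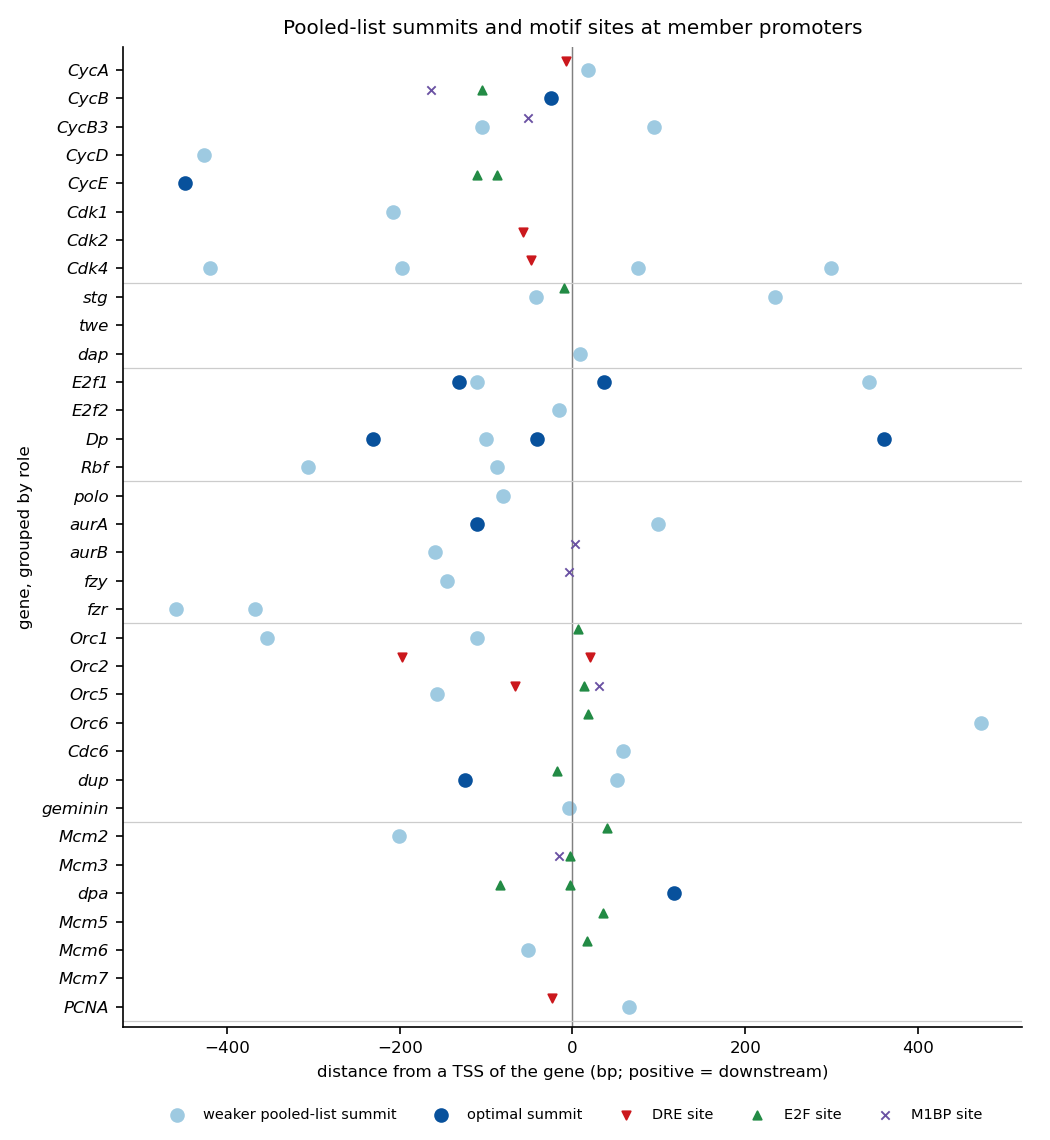
Pooled-list summits within 500 bp of a TSS (circles; dark, optimal; light, weaker) and promoter sites of the DRE, E2F and M1BP motifs (triangles and crosses), at their distance from a TSS of the gene (x axis, bp, positive downstream), with genes grouped by role. The DRE symbols, at 6 genes, stand in rows without a dark circle, and for genes with several TSSs each symbol is placed relative to its own nearest TSS or the TSS whose window holds it.

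The DRE was searched as TATCGATA, which is its own reverse complement, from 250 bp upstream to 50 bp downstream of any TSS of a gene. It was absent from all 7 promoters with an optimal peak (0.0%, Wilson interval up to 35.4%), beside 16.2% of the 2604 such promoters in the genome. Of the 27 promoters without one, 6 held it (22.2%), beside 8.79% of the 11341 in all. These 6 were CycA, Cdk2, Cdk4, Orc2, Orc5 and PCNA. Bound here means with an optimal promoter peak and unbound means without one, and 21 of the 27 unbound promoters had a weaker pooled peak. Among all genes the DRE was thus more frequent at bound than at unbound promoters, and among the 34 genes the counts ran the other way. With 7 bound promoters the counts are small, and the interval for the bound genes includes the genome's share. The shorter core ATCGATA, on either strand, was present at 1 of the 7 bound promoters, CycB (14.3%, beside 30.6% of all bound genes). It was at 9 of the 27 unbound ones (33.3%, beside 17.8% of all unbound genes).

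The 6 DRE promoters differed in how near a peak came. At CycA the DRE lay 8 bp upstream of the TSS and 25 bp from the summit of the rank 5343 peak, the nearest of the 6. At Orc5, 67 bp upstream of the TSS, it lay 90 bp from the rank 20710 summit. At Cdk4 and PCNA the sites, 48 bp and 24 bp upstream of a TSS, lay inside pooled peaks of ranks 20047 and 19663, at 149 bp and 162 bp from the nearest summits. At Cdk2 the site was 58 bp upstream of the TSS with the nearest pooled summit 5738 bp away. Orc2 had DREs 198 bp upstream and 21 bp downstream of its TSS, and no pooled summit within 1000 bp of either.

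**Figure D5:**
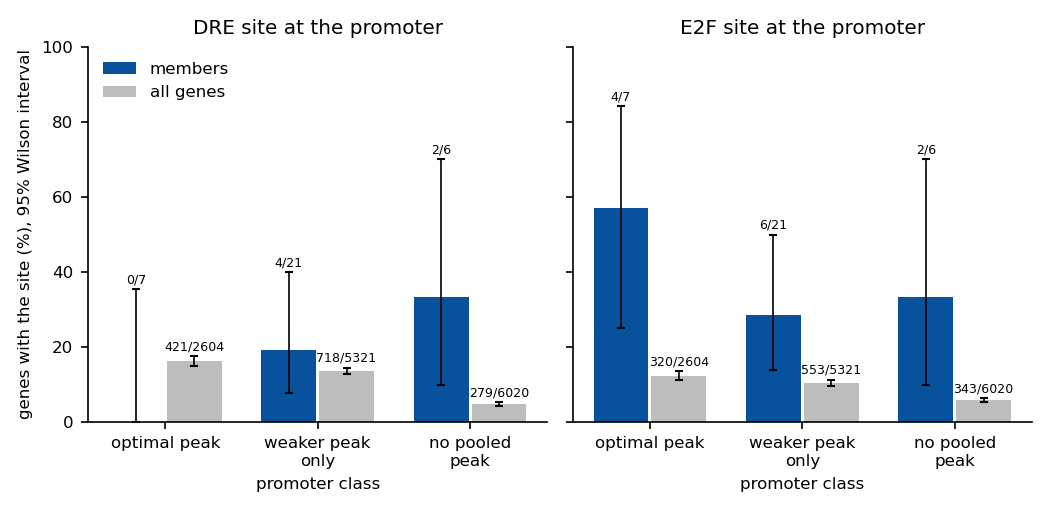
Share of promoters holding a DRE (left) or an E2F-type site (right) in percent (y axis), for the 34 genes (blue) and all protein-coding genes (grey), by promoter class; bars carry 95% Wilson intervals and the number with the site over the number in the class. The DRE was found at 0 of 7, 4 of 21 and 2 of 6 of the 34 genes' promoters with an optimal peak, a weaker peak only and no pooled peak.

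E2F-type sites, searched as TTTCCCGC, TTTGGCGC, TTTCGCGC or TTTGCCGC on both strands of the same window, were found at 12 of the 34 promoters (35.3%), beside 8.72% of all genes. Many of the listed genes are known E2F targets, so this share is not independent of how the list was made. A promoter without a match lacks only these letters in this window. Of the 7 bound promoters 4 held such a site (57.1%, beside 12.3% of all bound genes): CycB, CycE, dup and dpa. Of the 27 others 8 did (29.6%, beside 7.90% of all unbound genes): stg, Orc1, Orc5, Orc6, Mcm2, Mcm3, Mcm5 and Mcm6. The counts are small, and no link to binding was tested. The CycB site lay at another TSS than the optimal peak, 565 bp from the nearest pooled summit and in no pooled peak. All but 2 of the 7 MCM and PCNA genes, Mcm7 and PCNA, held one, whatever their CrebB rank. At dpa, 2 sites lay inside the rank 1257 peak, the nearer at 67 bp from its summit, and at dup a site lay 105 bp from the summit. None of the genes for E2F and Rb factors had an E2F-type site in this window.

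The full CRE palindrome TGACGTCA was at none of the 34 promoters, beside 0.724% of all genes. The nearest was at E2f1, on 3R from 21632476 to 21632483 in the 5′ UTR, 214 bp downstream of a TSS and 462 bp from the nearest pooled summit, in no pooled peak. The CRE core TGACG, on either strand, was at 9 of the 34 promoters (26.5%), beside 29.8% of all genes. Within 100 bp of the summit it was in 5 of the 10 optimal promoter peaks of the 34 genes, those of CycB and CycE, both of E2f1 and the third of Dp. Of the 2135 optimal promoter peaks in the genome, 17.6% held it. The 10 peaks belonged to only 7 genes, the counts are small, and the difference was not tested. In the promoter window 3 of the 7 bound genes held the core (42.9%), near the 38.7% of all bound genes. The site of the promoter factor M1BP, GGTCACACT, was at 6 of the 34 promoters (17.6%), beside 6.78% of all genes: CycB, CycB3, aurB, fzy, Orc5 and Mcm3.

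The number of TSSs and the neighbouring genes varied among the 7 bound genes. Of the 5 genes with 3 or more TSSs, 4 had an optimal promoter peak (80.0%, against 42.5% of all such genes), and of the 20 with a single TSS aurA alone did (5.0%, against 13.9%). More TSSs give a gene more windows in which a summit can fall, and this was not corrected for. A TSS of another gene on the opposite strand lay within 500 bp at 4 of the 7 bound genes (57.1%), namely Dp, aurA, dpa and dup, and at 8 of the other 27 (29.6%). In the genome these shares were 49.9% of bound and 22.7% of unbound genes.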

How the data were processed

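ChIP-seq peak lists of 3 replicates of 1 group were used. Per a readme that accompanies them, the authors' peaks were called on dm6 for each replicate and for the 3 alignments combined, against 1 control, and an IDR (irreproducible discovery rate) threshold gave the optimal list. The aligner and peak caller are not given in the sources used here. The deposited signal value of a peak is a score of no stated scale and served only to rank peaks within a list. The authors' −log10 q-value set the q threshold of 0.05, and another deposited column gave the summit offset. TSSs (19607, of protein-coding genes on 2L, 2R, 3L, 3R, 4 and X) came from Ensembl release 115, and sequence from the RefSeq copy of Release 6. Coordinates are written from 1.

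Python 3.11.15 with pandas 2.3.3, numpy 2.4.6, scipy 1.17.1 and matplotlib 3.10.9 was used. Counting was tested on simulated data. With 1 group and chosen genes no test was made: counts stand beside all protein-coding genes, with 95% Wilson intervals. Replicate support meant a summit within 100 bp. All 34 genes are named, and of the wider lists the 12 optimal promoter peaks of highest signal and every bound fork gene. Of 99 wider symbols, 96 matched by symbol, 1 by a synonym and 2 had no unique match. The genes and lists were chosen with earlier results of these data known. Alternatives changed the TSS distance and assignment, the list depth, replicate support, the replicates used and the DRE window and letters.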

Additional observations from a re-analysis of the deposited data

How the results depend on the processing

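The 7 genes with an optimal promoter peak became 6 with a distance of 250 bp, with the nearest TSS only, with a TSS inside the peak or with gene starts only, and 8 with 1000 bp, which added Cdk4. They became 4 in the upper part of the optimal list (1957 peaks), 3 with support by all 3 replicates and 3 to 5 with support by 2 replicates; fewer peaks enter each of these by construction. The 28 genes with a pooled promoter peak ranged from 19 to 31; the first 10000 ranks, which gave 19, were added after seeing the data. The replicate mean of 8.33 genes became 4.33 with 1957 peaks per replicate, 15.7 with 7830 and 28.0 with the full lists, and 7.0 to 9.0 without 1 replicate. The 3 genes with an optimal body peak ranged from 2 to 4, and were 2 without any 1 replicate. The 0 bound promoters with a DRE became 1 with the core of 7 letters, and the 6 unbound ones ranged from 5 to 9. No paired analysis was possible because all samples belong to 1 group. The depth is unknown, so absent peaks may lie under the detection limit of these lists, which hold a fixed number of peaks and run into background. Intervals cover the counting of genes only, and signal values were not compared between lists.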

Other observations

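A wider set of 97 further genes was listed with earlier results of these data known. It covered replication, the Rb and Myb complex, ubiquitin ligases, mitosis, and other cyclins and kinases, whatever their role in the cell cycle. An optimal promoter peak was found at 23 genes (23.7%, against 18.7% of all protein-coding genes) and a pooled one at 79 (81.4%, against 56.8%). The share with an optimal peak was near the background. Of 32 genes for origins and forks, 7 had an optimal peak (21.9%, also near the 18.7% of all genes). PolD2, a subunit of DNA polymerase delta, had the strongest of these (rank 266, signal 596.8), with best promoter ranks of 387, 728 and 92 in replicates 1, 2 and 3. Next came Dref, the gene of the DRE-binding factor itself (rank 305), although the summit lay nearer to the TSS of RpL13 (23 bp) than to that of Dref (61 bp). Ctf4, a replisome scaffold, had rank 433 with the TSS of CG8067 nearer to its summit. The kinase gene Cdc7 (rank 1101), PolA2 (rank 2247, with CG31064 nearer), the ribonucleotide reductase subunit RnrS (rank 2552) and chif, the activator of Cdc7 (rank 3791), completed the 7.

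Outside replication the highest ranks were at Cdc16, an APC subunit (rank 388), and the cyclins CycT (815) and CycG (1132). Rbf2, the other Rb gene of the fly, had rank 1388, and the cytokinesis regulator pbl had rank 1481. The checkpoint genes mei-41 (rank 2010) and Bub3 (rank 2016) had the TSSs of TH1 and Cap-D2 nearer to their summits, as CG32856 was at Rbf2. In all, 8 of the 23 bound genes had their best peak nearest to a TSS of another gene. In this set the DRE was at 7 of the 23 bound promoters (30.4%) and at 20 of the 74 others (27.0%), so its absence from the 7 bound promoters of the 34 genes did not carry over. Of 15 genes for APC and SCF ubiquitin ligases 1 had an optimal promoter peak (6.67%), and of 26 for mitosis and checkpoints 9 did (34.6%), beside 18.7% of all genes. The lists are small, and no difference between them was tested.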
